A study of Apis mellifera with 27 samples.

Results

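The microRNA (miRNA) genes of the honey bee (Apis mellifera) were examined for peaks of 4 histone marks in the brains of drones, queens and workers. A miRNA gene was any gene placed on chromosomes 1 to 16 of the RefSeq gene table for assembly Amel_HAv3.1 whose symbol was Mir followed by a digit, or Mirlet7. By this rule 234 of the 12255 genes on those chromosomes were miRNA genes, and none was chosen for its histone marks. A further 2 genes with such symbols lay on unplaced sequence and were not used. The table gives the extent of the short precursor (median length 92 bp, lowest 62 bp, highest 163 bp), not the start of the longer primary transcript. Each gene was therefore scored in a window that reached 2 kb beyond both of its ends. Windows that overlapped were joined to 201 loci, of which 18 held 2 or more miRNA genes and 51 genes in all, so that neighbouring miRNA genes could share a peak.

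Chromatin immunoprecipitation and sequencing (ChIP-seq) had been carried out on drones, which are male, and on queens and workers, which are both female. All were newly emerged adults, the queens from grafted larvae, with no mutation or drug treatment named for any group, and the tissue was brain without the optic lobes. Each library came from a pool of brains, and every combination of caste (drone, queen or worker) and mark (H3K27ac, H3K27me3, H3K4me1 or H3K4me3) had 2 libraries, 24 in total. The bulk tissue holds many cell types, so that fewer cells carrying a mark and less of the mark per cell cannot be told apart.

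MiRNAs are short RNAs that direct Argonaute proteins to partly complementary messenger RNAs, whose translation or stability is thereby reduced. They are cut from hairpins in longer transcripts, in the nucleus by Drosha and in the cytoplasm by Dicer, and many insect miRNAs lie inside introns of protein-coding genes or in clusters that share a transcript. Of the marks, H3K4me3 is typical of active promoters, H3K27ac of active promoters and enhancers, and H3K4me1 of enhancers, whereas H3K27me3 is laid down by Polycomb complexes at silenced developmental genes. A peak in a miRNA window may belong to the miRNA, to its host gene or to a neighbour.

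The deposited lists held 21407 to 26256 peaks per library for H3K27ac, 21803 to 24648 for H3K27me3, 12475 to 23717 for H3K4me1 and 3866 to 10010 for H3K4me3. The number of ChIP tags, recovered from the lowest background in the peak statistics, was lower in both drone libraries of each mark than in any other library. This recovered number, called depth below, is not the number of reads sequenced. The paper lists a drone library as the one with the most mapped reads for H3K4me3. The recovered depth for H3K4me3 was 4.20 to 5.21 M (megatags) in drones, against 13.6 to 19.5 M in queens and 15.3 to 19.5 M in workers. For H3K27ac it was 8.76 to 10.8 M in drones, 14.2 to 15.7 M in queens and 20.5 to 21.1 M in workers. For H3K27me3 it was 8.69 to 9.95 M in drones, 14.5 to 15.9 M in queens and 13.7 to 14.9 M in workers, and for H3K4me1 it was 13.1 to 13.6 M in drones, 23.2 to 25.1 M in queens and 15.7 to 16 M in workers. The neuronal genes Syt1, Para, brp and Nrx-1 had an H3K27ac peak in all 6 libraries, whereas Vg (vitellogenin of the fat body) and Mrjp1, Mrjp2 and Mrjp3 (royal jelly proteins of the hypopharyngeal gland) had none. Other markers from outside the central brain did have H3K27ac, namely the fat body hexamerins Hex110 in 5 libraries and Hex70a in 1, and the photoreceptor opsins Uvop and Blop in all 6, while the opsin Lop1 had none; their part in the results was not tested. Markers of glia and of muscle could not be matched in the gene table.

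H3K27ac was the mark most often found at miRNA genes. Its peaks overlapped 46.4% ± 2.98 of the 234 windows (SD, n = 6 libraries, from 43.6 to 50.4%), followed by H3K4me1 in 33.8% ± 4.62, H3K4me3 in 24.4% ± 5.33 and H3K27me3 in 17.3% ± 1.14. For all genes the shares were 60.5% ± 2.01 for H3K27ac, 40.5% ± 4.1 for H3K4me1, 46.8% ± 6.72 for H3K4me3 and 16.8% ± 1.81 for H3K27me3, but with a median gene length of 3621 bp these windows were longer. Windows of equal length reached 2 kb to each side of the gene's midpoint and so left out the start and end of longer genes. The part of this in the comparison was not tested. In these windows the miRNA share exceeded that of all genes for all 4 marks, whereas in the full windows it did so for H3K27me3 only. H3K27ac then overlapped 46.2% ± 2.78 of miRNA genes (43.6 to 50.0%) and 39.3% ± 1.97 of all genes (37.8 to 43.0%). H3K27me3 overlapped 17.1% ± 1.30 of miRNA genes (15 to 18.8%) and 10.4% ± 1.10 of all genes (9.11 to 11.8%). For both of these marks every library's share of miRNA genes lay above the highest share of all genes. H3K4me1 overlapped 33.3% ± 4.37 of miRNA genes (26.9 to 39.3%) and 23.4% ± 3.96 of all genes (18.5 to 28.7%), so that these ranges overlapped. The H3K4me3 shares were 24.1% ± 5.22 of miRNA genes (15 to 29.1%) and 22.3% ± 5.17 of all genes (14.3 to 28.7%), which is a smaller difference than the spread between libraries.

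**Figure D1:**
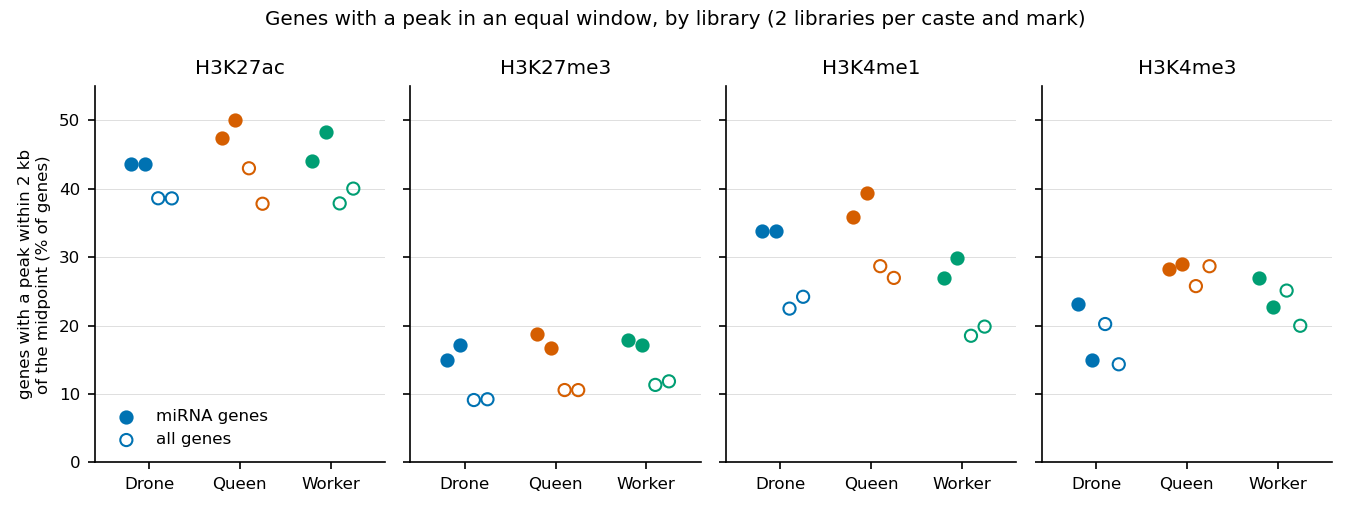
Share of genes with a peak in each of the 24 libraries, by mark and caste (vertical axis, percent of genes, windows of 2 kb on each side of the gene's midpoint). Filled points are the 234 miRNA genes and open points all 12255 genes; the filled H3K27ac points sit between 43.6 and 50.0%, above the open ones, while the filled and open H3K4me3 points lie together.

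Around the miRNA genes, mean peak coverage of each of the 4 marks was highest in the 250 bp next to the midpoint of the gene. H3K27ac peaks covered 19.9% of the positions within 250 bp of the gene's midpoint (17.4 to 23.4% over the 6 libraries) and 13.3% in the next 250 bp. Coverage by H3K4me3 was 8.21% in the first 250 bp and 3.19% between 1750 and 2000 bp, and that by H3K27me3 was 6.99% and 5.68% in the same bins. Over the whole windows H3K27ac peaks covered 14.6% of the bases, against 6.42% of the 16 chromosomes, and H3K4me3 peaks covered 5.32%, against 1.71%. The corresponding values were 3.83% and 2.82% for H3K4me1 and 6.26% and 6.05% for H3K27me3, so that H3K27me3 covered about the same part of the miRNA windows as of the chromosomes. Between 9750 and 10000 bp from the midpoint, mean coverage was 12.1% for H3K27ac, 3.35% for H3K4me3, 4.75% for H3K4me1 and 6.19% for H3K27me3. The higher H3K27ac coverage was therefore not confined to the miRNA windows. The precursor itself was overlapped by an H3K27ac peak at 52 to 62 of the 234 genes, depending on the library. H3K27me3 did so at 20 to 22 genes, H3K4me1 at 11 to 27 and H3K4me3 at 19 to 26.

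**Figure D2:**
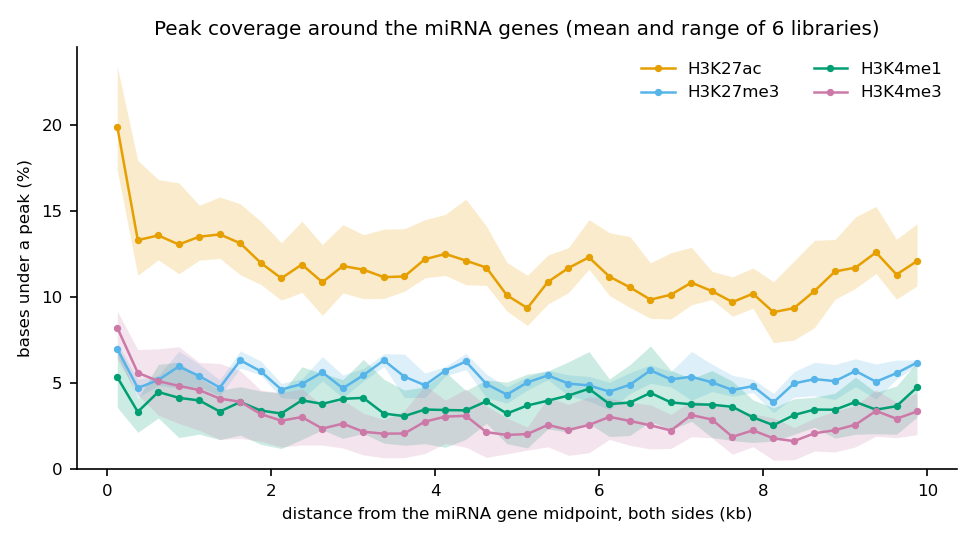
Mean share of positions covered by peaks of each mark (vertical axis, percent) against the distance from the midpoint of the 234 miRNA genes (horizontal axis, kb, bins of 250 bp, both sides joined). Lines are means over the 6 libraries of a mark and bands run from the lowest to the highest library; the H3K27ac line stands at 19.9% in the first bin and 13.3% in the second.

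For H3K27ac, H3K27me3 and H3K4me3, most miRNA genes had a peak either in all 6 libraries or in none. For H3K27me3 and H3K4me3 this was mainly because no library had a peak. Among the genes with any peak of these 2 marks, those with it in all 6 libraries were the minority. An H3K27ac peak was found in all 6 libraries at 85 miRNA genes (36.3%) and in none at 101, which left 48 genes in between. This compares with 50.4% of all genes in all 6 libraries, or 29.4% in windows of equal length, where the miRNA genes again reached 36.3%. The windows of equal length left out the start and end of longer genes here too. H3K27me3 was present in all 6 libraries at 29 miRNA genes (12.4%), against 10.9% of all genes and 6.18% in windows of equal length, and in none at 171. H3K4me3 was present in all 6 at 33 miRNA genes (14.1%), against 33.5% of all genes and 13.0% in windows of equal length, and in none at 143. H3K4me1 varied most, with 31 miRNA genes in all 6 libraries (13.2%, against 22.0% of all genes and 7.06% in windows of equal length), 87 in none and 116 in between. No peak of any mark in any library was found at 34 miRNA genes, which means that none was called there, not that the marks were absent.

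**Figure D3:**
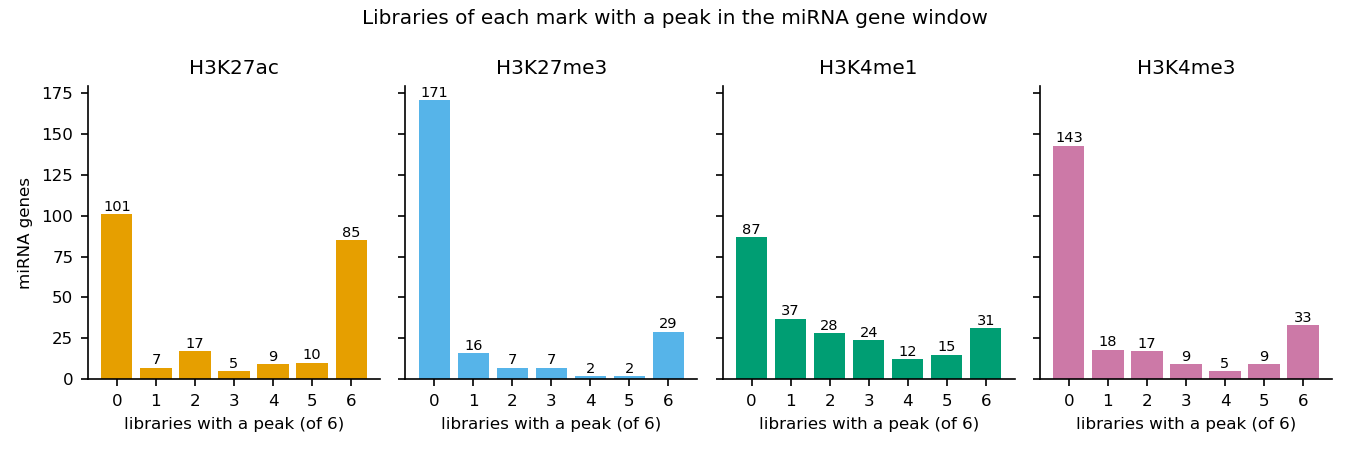
Number of miRNA genes (vertical axis) by the number of libraries, 0 to 6, in which a peak overlapped the window (horizontal axis), with a panel for each mark. For H3K27ac the bars at 0 and 6 libraries, 101 and 85 genes, stand above all others, whereas the H3K4me1 genes are spread over the whole range.

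Combinations of marks were counted for miRNA genes only. Without the shares of all genes, none of them can be called particular to miRNA genes. Taking only marks present in all 6 libraries, H3K27ac stood alone at 41 miRNA genes of 35 loci and together with H3K4me3 at 26 genes of 24 loci. H3K27me3 stood alone at 21 genes. H3K4me1 stood alone at 12 genes, but these came from only 5 loci. H3K27ac and H3K4me1 were found together at 10 genes of 8 loci, among them the 3 genes of the let-7 complex, and 111 genes had no mark in all 6 libraries. H3K27ac and H3K27me3, marks of the same lysine, were both present in all 6 libraries at 4 genes, namely Mir3719, Mir3735, Mir282 and Mir9896. Peaks of 3 marks in all 6 libraries of each occurred at 7 genes, which were Mir3735 and Mir282 (H3K27ac, H3K27me3 and H3K4me3), Mir9896 (H3K27ac, H3K27me3 and H3K4me1), and Mir6059, Mir92b-1, Mir9889 and Mir965 (H3K27ac, H3K4me1 and H3K4me3). At Mir965, for example, H3K27ac peaks covered 800 and 773 bp of the window in the drone libraries, 1561 and 745 bp in the queen libraries and 1208 and 749 bp in the worker libraries. H3K4me1 covered 1394 and 1348 bp there in drones, 1286 and 1690 bp in queens and 480 and 1240 bp in workers, so the castes overlapped for H3K27ac whereas both worker libraries stood below all others for H3K4me1. No miRNA gene had all 4 marks in all libraries.

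The position of the miRNA gene relative to other genes went with its marks. Of the 234 genes, 150 lay within the extent of a protein-coding gene, 9 within a long non-coding RNA gene only and 75 within no other gene; whether a hosted miRNA is intronic or exonic is not given by the table. H3K27ac was found at 41.7% ± 4.50 of the miRNA genes within a protein-coding gene and at 55.8% ± 1.96 of those within no other gene (SD, n = 6 libraries), and H3K4me3 at 21.3% and 31.3%. The end of another gene fell inside the window of 74 miRNA genes. These had H3K27ac in 63.5% ± 3.73 and H3K4me3 in 36.0%, against 38.5% ± 3.78 and 19.0% for the other 160. H3K27me3 went the other way, at 13.7% with another gene's end in the window and 19.0% without. MiRNA genes are numbered in the order of their registration, and the 76 genes numbered below 2000 include the families described here as known from Drosophila. They had H3K27ac in 54.2% ± 3.16, against 42.7% ± 3.46 of the 158 genes numbered 2000 or above. Among genes with no other gene's end in the window the H3K27ac shares were 48.0% and 35.2%. For comparison with other short genes, an H3K27ac peak overlapped 45.6 to 54.4% of the 195 tRNA genes and an H3K27me3 peak 10.3 to 13.3%.

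Among miRNAs with a known role, many of those of the nervous system carried H3K27ac. Of a list of 19 such genes, 10 had an H3K27ac peak in all 6 libraries and 4 in none. The share in all 6 was 52.6%, against 36.3% of all miRNA genes and 44.7% of those numbered below 2000. The mean share was 69.3% ± 6.15, against 46.4% and 54.2%. H3K27me3 was present in all 6 at 1 gene of the list, Mir219. This list was drawn up with earlier results of these data known. Mir14 (chromosome 11, 2869218 to 2869317, in no other gene) encodes a miRNA that in Drosophila restrains cell death and acts in insulin-producing neurons. H3K27ac peaks covered 3800 and 3768 bp of its window in drones, 3820 and 3524 bp in queens and 3751 and 3525 bp in workers, and H3K4me3 peaks covered 3367 and 2764 bp, 3099 and 3621 bp, and 3186 and 3103 bp in the same order. H3K27ac thus covered most of the window in every library, and its strongest H3K27ac peak ranked between the 97.0 and 99.6 percentiles of fold enrichment in its own list. Mir124 (chromosome 11, 12147764 to 12147840, in no other gene), whose product is the conserved miRNA of differentiated neurons, had 2955 and 2685 bp of H3K27ac in drones, 2820 and 2748 bp in queens and 3346 and 2898 bp in workers. H3K4me3 peaks were short there, 254 and 273 bp in queens and 279 bp in 1 worker library, and the drone libraries had none.

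Mir276 (chromosome 7, 10216900 to 10216983, within the protein-coding gene LOC725329) encodes a miRNA required for olfactory memory in Drosophila. It had 2213 and 2278 bp of H3K27ac in drones, 2713 and 1951 bp in queens and 2163 and 1912 bp in workers, and 1099 to 1636 bp of H3K4me3. For H3K27ac the queen libraries overlapped those of both other castes, while both drone libraries lay above both worker libraries, and for H3K4me3 the drone libraries overlapped those of both other castes, while both queen libraries lay above both worker libraries. Mir7, which acts in photoreceptor differentiation in Drosophila, had 992 and 763 bp of H3K27ac in drones, 2989 and 1818 bp in queens and 1844 and 1796 bp in workers, so that both drone libraries were the lowest. The family of Mir279, which in Drosophila shapes the carbon dioxide sensing neurons, was divided. Mir279a, Mir279c and Mir279d had H3K27ac and H3K4me3 in all 6 libraries, whereas Mir279b had only a short H3K27ac peak of 179 bp in 1 queen library and of 197 bp in 1 worker library. Mir190 had no peak of any mark, and Mir137 had only H3K27me3 peaks, of 187 and 208 bp in queens and 195 bp in 1 worker library.

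The let-7 complex, which in Drosophila is a single transcript that times the passage to the adult, lies on chromosome 8 with Mir125 (7659889 to 7659995), Mirlet7 (7660424 to 7660523) and Mir100 (7661064 to 7661163) side by side. At Mirlet7 H3K27ac covered 1028 and 1041 bp in drones, 928 and 1022 bp in queens and 586 and 774 bp in workers. H3K4me1 covered 651 and 856 bp in drones, 623 and 581 bp in queens and 630 and 383 bp in workers. Both worker libraries were the lowest for H3K27ac, both drone libraries were the highest for H3K4me1, and no H3K27me3 peak was found at any of the 3 genes.

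The pattern was the opposite at the miRNAs of the Hox clusters, Mir10 and Mir993, whose neighbours in insects are the homeotic genes that set segment identity. At Mir993 (chromosome 16, 4312514 to 4312602) H3K27me3 covered 2601 and 2602 bp in drones, 2599 and 2567 bp in queens and 2532 and 2429 bp in workers. Mir10 (chromosome 16, 4243330 to 4243429, within LOC107965722) had 2719 and 2037 bp in drones, 2766 and 2732 bp in queens and 2746 and 3343 bp in workers. H3K27me3 thus covered a large part of both windows in every library. Mir10 also had H3K4me1 in every library, 1759 and 1750 bp in drones, 453 and 1602 bp in queens and 434 and 583 bp in workers. Of the muscle miRNAs, Mir133 had H3K27ac in all 6 libraries (470 to 1432 bp) and Mir1-1 in none, although both lie within the extent of the same protein-coding gene, LOC550708.

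Among the miRNA clusters, H3K27ac was present in all 6 libraries at both genes of the Mir275 and Mir305 cluster, at Mir277, Mir317 and Mir34, and at the 3 genes of the mir-92 family. It was absent from every library at the 7 genes of the Mir2, Mir13 and Mir71 cluster on chromosome 1, whose members in Drosophila repress cell death genes, and 6 of these had H3K4me1 in all 6 libraries. No peak of any mark was called at Mir12 and Mir283 or at Mir306, Mir79 and Mir9b.

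**Figure D4:**
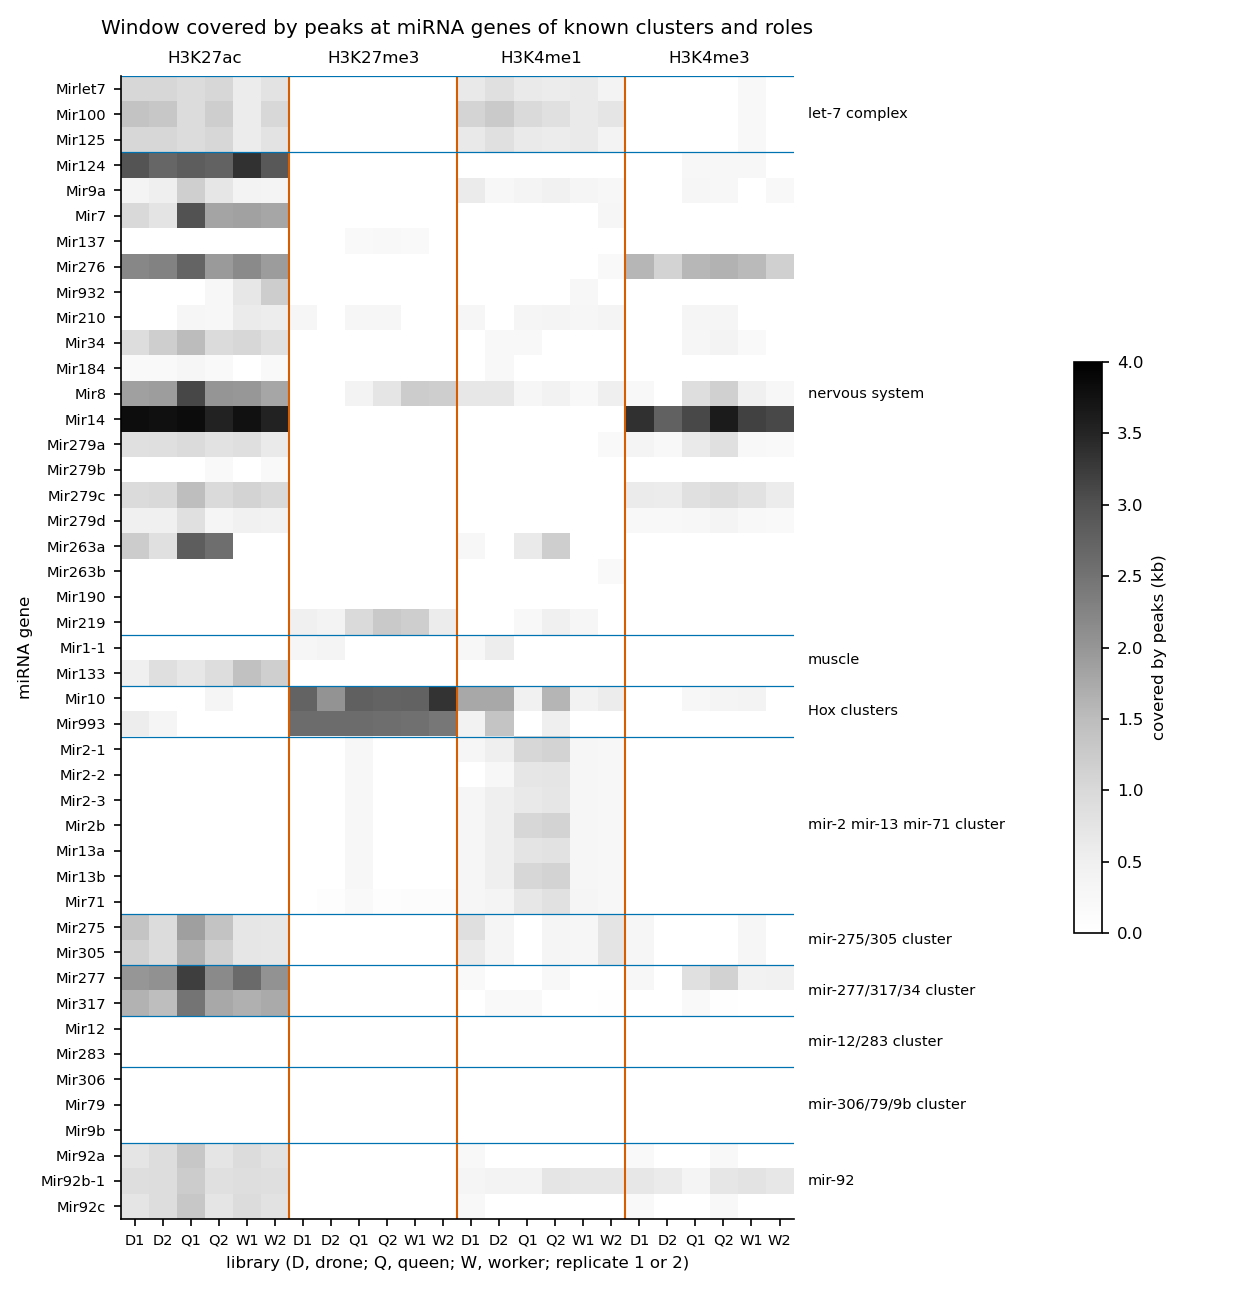
Length of the window covered by peaks (grey scale, kb) for miRNA genes of the role and cluster lists (rows) in each library (columns, by mark and then drone, queen and worker). Mir14, Mir276 and Mir124 are dark throughout the H3K27ac columns, Mir10 and Mir993 throughout the H3K27me3 columns, and Mir12, Mir283, Mir306, Mir79 and Mir9b are blank.

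To ask which of 2 marks held the larger part of each window, the covered base pairs were compared by limma across all genes with a peak in at least 2 of the 12 libraries, as the difference of log2(covered bp + 100), averaged over castes. H3K27ac and H3K27me3 divided the miRNA genes. Of the 163 miRNA genes that passed this filter, 111 had more H3K27ac and 34 more H3K27me3 (adjusted p under 0.05), against 76.6% and 15.2% of the 9092 genes tested. The median difference was 2.23 for miRNA genes and 2.57 for all genes. The genes farthest to the side of H3K27ac were Mir9895, Mir1000, Mir14, Mir3727, Mir6055, Mir6042, Mir9874, Mir124, Mir6059 and Mir9889, with differences from 5.33 down to 4.71 on the log2 scale. Mir1000, which in Drosophila limits glutamate release at synapses, had a difference of 5.25 ± 0.05 (SE, adjusted p = 6.2e-12, limma, n = 6 libraries per mark). No H3K27me3 peak was called there in any library. A gene could pass the filter through either mark alone. Where the other mark had no peak, its values had no spread between libraries. The filter then favoured a call, and the SE came from the spread of the mark that was present. Those farthest to the side of H3K27me3 were Mir3789, Mir3752, Mir6066, Mir3797, Mir3751, Mir3739, Mir3800, Mir10, Mir193 and Mir6004, from -5.17 to -4.39.

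At Mir3789 (chromosome 14, 9796502 to 9796599, within LOC107965485) H3K27me3 peaks covered 2831 and 3344 bp in drones, 3727 and 3829 bp in queens and 3803 and 3618 bp in workers, and no peak of any other mark was called. At Mir9895 (chromosome 11, 15979749 to 15979818, within LOC100577364) H3K27ac covered 3798 and 3843 bp in drones, 4070 and 3878 bp in queens and 4070 and 3876 bp in workers, with no H3K27me3. The 2 marks thus did not overlap in either window, and the size of such a difference is set in part by the 100 bp added before the logarithm. The 4 genes with both marks in every library were not called, with differences of -0.68 ± 0.29 at Mir3735, -0.27 ± 0.29 at Mir9896, -0.15 ± 0.19 at Mir3719 and -0.13 ± 0.14 at Mir282.

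H3K4me1 and H3K4me3 also divided the miRNA genes, in another proportion than they did all genes. Of 135 miRNA genes that passed the filter 60 had more H3K4me1 and 40 more H3K4me3, against 31.6% and 40.4% of the 8535 genes tested by limma. The median difference was 0.67 for miRNA genes and -0.10 for all genes. Here too a gene could pass the filter through 1 of the marks alone. The windows of other genes include the gene's own start, whereas the table does not give the start of the miRNA transcripts, and the part of this in the difference was not tested. The largest differences to the side of H3K4me3 were at Mir14 (-5.04 ± 0.09, adjusted p = 1.2e-08), Mir6054, Mir9879, Mir3727, Mir276 (-3.66 ± 0.26), Mir9884, Mir6067, Mir252a, Mir6043 and Mir3773. To the side of H3K4me1 stood Mir3797 (3.88 ± 0.12), Mir100 (3.05 ± 0.26), Mir6002, Mir9895, Mir9896, the neighbouring Mir2b, Mir2-1 and Mir13b (2.57 ± 0.12 each, from 1 shared set of peaks), and Mirlet7 and Mir125 (2.55 ± 0.28 each). Mir3797 (chromosome 16, 3228923 to 3229060, in no other gene) combined this H3K4me1, of 2046 and 2096 bp in drones, 1649 and 1855 bp in queens and 545 and 882 bp in workers, with 2184 to 2560 bp of H3K27me3 in every library.

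The castes were then compared. The share of miRNA genes with a peak was lowest in drones for 3 of the marks. For H3K27ac it was 43.6% in each of the 2 drone libraries, against 47.4 and 50.4% in the queen libraries and 44.4 and 49.1% in the worker libraries. For H3K4me3 it was 15 and 23.5% in drones, 28.2 and 29.5% in queens and 22.6 and 27.4% in workers. Drones fell below queens by 5.34 percentage points for H3K27ac (SD within castes 2.27) and by 9.62 points for H3K4me3 (SD 4.02), without overlap, whereas the H3K4me3 shares of drones and workers overlapped. Over all genes the drone minus queen difference was -1.14 points for H3K27ac and -12.6 points for H3K4me3. The H3K4me1 share was highest in queens at 38.5%, against 34.2% in drones and 28.6% in workers, with no overlap between the castes. The shares of all genes had the same order, with 39.6% in drones, 45.3% in queens and 36.5% in workers. With equal numbers of peaks the miRNA shares were 25.6% in drones, 25.4% in queens and 26.1% in workers, and every pair of castes overlapped. The H3K27me3 share was 16.2% in drones, 17.9% in queens and 17.7% in workers, differences of at most 1.71 points. Some of these differences changed when pileups were scaled, which dropped peaks and left the remaining peaks at their width. The part of depth in the differences was not tested. With pileups scaled to equal depth, the drone minus queen difference was -2.56 points for H3K4me3, 4.06 for H3K4me1 and 0.855 for H3K27me3, and the drone minus worker difference for H3K4me3 was 2.14 points, against -5.77 as deposited. For H3K27ac the drone minus worker difference was -0.43 points at equal depth, against -3.21 as deposited. The H3K27ac drone minus queen difference was -3.42 points at equal depth, still without overlap. For H3K4me1 the drone minus worker difference was 9.19 points at equal depth, against 5.56 as deposited.

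Single genes were compared between castes by limma on the same scale, with 2 libraries per caste and adjustment over all genes tested for the mark. A miRNA gene entered only with a peak in at least 2 of the 6 libraries, so a gene passed mainly through the caste in which it was high. A difference from a caste with no peak depends on the 100 bp added.

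Before any test, complete switches between castes were counted, that is miRNA genes with a peak in both libraries of one caste and in neither library of another. Each pair of counts gives first the genes with the mark in the caste named first. For H3K27ac, 4 miRNA genes had such a peak in drones and not in queens and 10 in queens and not in drones, against 1.4% and 2.33% of all genes (1.71% and 4.27% of miRNA genes). Drones and workers differed in this way at 5 and 10 miRNA genes (2.14% and 4.27%, against 2.13% and 2.21%), and queens and workers at 4 and 2 (1.71% and 0.855%, against 1.92% and 1.04%). The genes with H3K27ac in drones and not in queens were Mir3771, Mir29b, Mir928 and Mir993. For H3K27me3 there were 4 miRNA genes in each direction between drones and queens (against 0.718% and 2.02% of all genes), 2 and 6 between drones and workers (against 0.816% and 3.08%) and 1 and 2 between queens and workers (against 0.718% and 1.2%). The 4 with H3K27me3 in queens and not in drones were Mir3720, Mir3785, Mir8 and Mir137. Switches were most frequent for H3K4me1, with 9 and 12 miRNA genes between drones and queens (against 2.37% and 5.91% of all genes), 16 and 7 between drones and workers (against 4.91% and 2.78%) and 18 and 2 between queens and workers (against 4.99% and 0.612%). As a share of miRNA genes the largest of these were 7.69%, in queens and not in workers, and 6.84%, in drones and not in workers. For H3K4me3 no miRNA gene had a peak in drones and not in queens or in workers (against 0.261% and 0.547% of all genes). The reverse was found at 15 genes from queens (6.41%, against 7.3%), among them Mir124, Mir9a, Mir34 and Mir10, and at 8 from workers (3.42%, against 3.78%). The strongest queen peaks ranked low in fold enrichment in their own lists, at percentiles 5.61 to 5.84 at Mir10, 5.72 to 11.6 at Mir124 and 19.6 to 23.9 at Mir9a. At Mir34 they ranked at 40.2 to 47.9. The summits at Mir10 lay 2237 to 2304 bp from the gene, beyond the window. Between queens and workers 5 and 3 genes switched (2.14% and 1.28%, against 3.34% and 0.547%).

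H3K27ac differed between castes at 13 miRNA genes of the 126 tested. Between drones and queens 1 gene was higher and 4 were lower in drones (0.794% and 3.17%, against 0.705% and 2.57% of the 8085 genes tested). Between drones and workers 5 were higher and 8 lower in drones (3.97% and 6.35%, against 2.14% and 3.91%). Between queens and workers 3 were higher in queens (2.38%, against 0.668%) and 0 were lower, against 0.173% of all genes, with 9 lower at an unadjusted p under 0.05. Mir29b (chromosome 8, 7204475 to 7204574, within LOC726657) had H3K27ac in drones only, 650 and 665 bp, and 0 bp in all queen and worker libraries. The log2 difference was 2.92 ± 0.41 from queens (SE, adjusted p = 0.0336) and likewise 2.92 from workers (adjusted p = 0.0244). Mir3721 (chromosome 3, 8727161 to 8727265, within LOC100578925) showed the reverse, 0 and 0 bp in drones, 804 and 765 bp in queens and 1534 and 1502 bp in workers. Its difference was -3.14 ± 0.19 between drones and queens (adjusted p = 0.00761) and -4.02 between drones and workers (adjusted p = 0.00254), and no caste overlapped another. Mir263a (chromosome 10, 6351251 to 6351341, in no other gene), whose product protects sensory bristle cells from death in Drosophila, was covered by 1220 and 833 bp in drones and 2827 and 2567 bp in queens, against 1 and 0 bp in workers. The differences were 3.46 ± 0.23 between drones and workers (adjusted p = 0.00602) and 4.80 between queens and workers (adjusted p = 0.00697), and the castes were fully apart.

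Mir6060 (chromosome 2) was likewise without H3K27ac in workers, with 977 and 930 bp in drones and 764 and 580 bp in queens, whereas Mir929 had 0 and 0 bp in drones, 520 and 151 bp in queens and 1265 and 1072 bp in workers. At Mir3792 all libraries had H3K27ac, 1034 and 1357 bp in drones, 4137 and 3410 bp in queens and 3323 and 2835 bp in workers, and the drone minus queen difference was -1.59 ± 0.20 (adjusted p = 0.0280). Both drone libraries lay well below the other 4. Mir932, which in honey bees acts in memory, pointed the same way without passing the test, with 0 and 0 bp in drones, 0 and 261 bp in queens and 690 and 1215 bp in workers (drone minus worker -3.35 ± 0.71, adjusted p = 0.0675). Mir993, at the Hox cluster, had 569 and 343 bp of H3K27ac in drones and 0 bp elsewhere and was not called either (adjusted p = 0.0668 and 0.0525). Leaving out either worker library left 0 of the 13 genes called (33 and 37 miRNA genes at an unadjusted p under 0.05), either drone library left 2, and either queen library gave 24, which included all 13. With the gene body in place of the window limma called 0 genes, with 10 at an unadjusted p under 0.05, and at equal depth it called 11, 9 of them among the 13.

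H3K27me3 differed between castes at 10 miRNA genes of the 47 tested. Between drones and queens 2 were higher and 2 lower in drones (4.26% each, against 4.43% and 11.3% of the 2458 genes tested), and between drones and workers 3 were higher and 7 lower (6.38% and 14.9%, against 8.1% and 23.4%). Between queens and workers 0 were higher, against 4.19% of all genes, with 2 higher at an unadjusted p under 0.05, and 2 were lower (4.26%, against 5.98%). Mir8 (chromosome 11, 14231874 to 14231958, in no other gene), which in Drosophila promotes body growth through the fat body, had 0 and 0 bp in drones, 377 and 734 bp in queens and 1220 and 1196 bp in workers. The log2 difference was -2.66 ± 0.36 between drones and queens (adjusted p = 0.0209) and -3.71 between drones and workers (adjusted p = 0.00774), and the castes were fully apart. Mir315 (chromosome 2, 10406537 to 10406618, in no other gene), an activator of Wingless signalling in Drosophila, had H3K27me3 in workers only, 564 bp in both libraries, against 0 bp in all drone and queen libraries (drone minus worker -2.73 ± 0.26, adjusted p = 0.00726). Mir981 (chromosome 2, 11209287 to 11209380, within LOC410870) had it in drones only, 339 and 265 bp, against 0 bp in queens and workers (drone minus worker 2.00 ± 0.25, adjusted p = 0.0101). The drone peaks at Mir981 were weak, between the 5.65 and 16.8 percentiles of fold enrichment in their own lists. The worker peaks at Mir315 ranked between the 20.6 and 50.2 percentiles.

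Mir1-1 (chromosome 16, 5313865 to 5313947), the muscle miRNA, had both H3K27me3 and H3K4me1 in drones only. H3K27me3 covered 301 and 356 bp and H3K4me1 248 and 556 bp in the drone libraries, against 0 bp of both marks in queens and workers. The H3K27me3 peaks were weak, between the 12.7 and 18.6 percentiles of fold enrichment in their own lists. The drone minus worker difference was 2.10 for H3K27me3 (adjusted p = 0.0091) and 2.26 for H3K4me1 (adjusted p = 0.0299). Mir3719 (chromosome 3, 8522550 to 8522685, within LOC408741) differed in extent rather than presence, with 2314 and 2301 bp of H3K27me3 in drones, 2140 and 1773 bp in queens and 724 and 294 bp in workers (drone minus worker 2.08 ± 0.39, adjusted p = 0.0232). Both worker libraries were the lowest. Mir6001, within the gene Vhdl, was higher in workers, with 849 and 437 bp in drones, 1154 and 1130 bp in queens and 2167 and 2558 bp in workers (drone minus worker -1.78 ± 0.32, adjusted p = 0.0203). At equal depth 3 of the 10 genes remained called. Leaving out drone replicate 1 or 2 gave 4 and 3 called genes, 3 of the 10 in both cases, and leaving out worker replicate 1 gave 15, 6 of the 10. With the gene body in place of the window 5 genes were called, 2 of the 10.

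H3K4me1 differed between castes at 22 miRNA genes of the 110 tested. Between drones and queens 5 were higher and 8 lower in drones (4.55% and 7.27%, against 5.16% and 11.5% of the 6263 genes tested). Between drones and workers 10 were higher and 4 lower (9.09% and 3.64%, against 15.5% and 5.3%), and between queens and workers 12 were higher and 1 lower in queens (10.9% and 0.909%, against 12.4% and 0.639%). Mir3735 (chromosome 6, 10159199 to 10159293, within LOC724172) had 1205 and 1222 bp in drones and 0 bp in all queen and worker libraries. The difference was 3.72 ± 0.30 from queens (adjusted p = 0.0150) and the same size from workers (adjusted p = 0.0103), while H3K27ac, H3K27me3 and H3K4me3 were present at this gene in every library. Mir3800 followed the same pattern, with 432 and 495 bp in drones and 0 bp elsewhere (2.49 ± 0.30 from workers, adjusted p = 0.0146). Mir3784 (chromosome 14, 2295739 to 2295829, within LOC100577945 and LOC100578990) was graded, with 0 and 0 bp in drones, 1055 and 921 bp in queens and 277 and 297 bp in workers, and all 3 pairs were called (drone minus queen -3.44 ± 0.26, adjusted p = 0.0145).

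Mir3715 had the same order of castes, with 0 and 0 bp in drones, 896 and 1012 bp in queens and 432 and 467 bp in workers. The cluster of Mir2-1, Mir2b and Mir13b was called between queens and workers, with 297 and 519 bp in drones, 1024 and 1108 bp in queens and 285 and 246 bp in workers (queen minus worker 1.67 ± 0.30, adjusted p = 0.0375); these 3 genes shared their peaks and count as 1 observation. Mir1000 had 350 and 1703 bp in drones and 0 bp elsewhere and did not pass the test (drone minus queen 3.17 ± 0.74, adjusted p = 0.0598). Leaving out either drone library left 0 of the 22 genes called (38 and 36 miRNA genes at an unadjusted p under 0.05), and leaving out either queen library gave 10, 6 of them among the 22. At equal depth 28 were called, 15 of them among the 22. With the gene body in place of the window 5 were called, 3 of the 22.

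H3K4me3 differed between castes at 13 miRNA genes of the 73 tested, and in no case was the drone higher. Between drones and queens 0 were higher and 10 lower in drones (0% and 13.7%, against 0.332% and 12.6% of the 6629 genes tested), and between drones and workers 0 were higher and 6 lower (0% and 8.22%, against 0.453% and 4.9%). At an unadjusted p under 0.05, too, 0 were higher in drones in limma's test, from queens and from workers. Between queens and workers 3 were higher and 3 lower in queens (4.11% each, against 4.24% and 0.739%). The drone minus queen median was -0.65 for the miRNA genes tested and -0.66 for all genes tested, so that the shift in drones extended over the whole gene set. The recovered depth for this mark was also lowest in the drone libraries, and its part in the shift was not tested. Mir9874 (chromosome 4, 13201084 to 13201177, within LOC408769) had 30 and 57 bp in drones, 573 and 597 bp in queens and 601 and 529 bp in workers (drone minus queen -2.26 ± 0.18, adjusted p = 0.0135). The summit of its strongest peak lay 2314 to 2480 bp from the gene over all castes, so the window held only an edge of that peak. Its fold enrichment was not lower in drones, at 4.19 to 6.4, against 3.68 to 3.74 in queens and 3.86 to 5.59 in workers. Mir278 (chromosome 8, 12508871 to 12508962, in no other gene), which acts in energy balance in Drosophila, had 0 and 0 bp in drones, 257 and 241 bp in queens and 248 and 215 bp in workers (drone minus queen -1.80 ± 0.26, adjusted p = 0.0223). At both genes the drone libraries lay below the other 4.

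Mir210 (chromosome 2, 14416134 to 14416218, in no other gene), which acts in photoreceptors and the circadian system of Drosophila, differed in more than 1 mark. H3K4me3 was found in queens only, 0 and 0 bp in drones, 322 and 316 bp in queens and 0 and 0 bp in workers (drone minus queen -2.07 ± 0.23, adjusted p = 0.0198). H3K27ac covered 0 and 0 bp in drones, 311 and 239 bp in queens and 608 and 555 bp in workers (drone minus worker -2.77 ± 0.33, adjusted p = 0.0180), so the castes were fully apart. H3K27me3, not called there, covered 293 and 0 bp in drones, 295 and 311 bp in queens and 0 bp in workers. Mir6041 had H3K4me3 in workers only, 311 and 265 bp, against 0 bp in drones and queens. The strongest of these peaks were weak, between the 10.5 and 14.1 percentiles of fold enrichment in their own lists. Leaving out either queen library left 0 of the 13 genes called for H3K4me3 (18 and 16 miRNA genes at an unadjusted p under 0.05), leaving out drone replicate 2 left 1, and leaving out drone replicate 1 gave 23, of which 11 were among the 13. With the gene body in place of the window limma called 0, with 1 at an unadjusted p under 0.05. With equal numbers of peaks 7 were called, 3 of them among the 13, and at equal depth 10 were called, 5 of them among the 13.

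**Figure D5:**
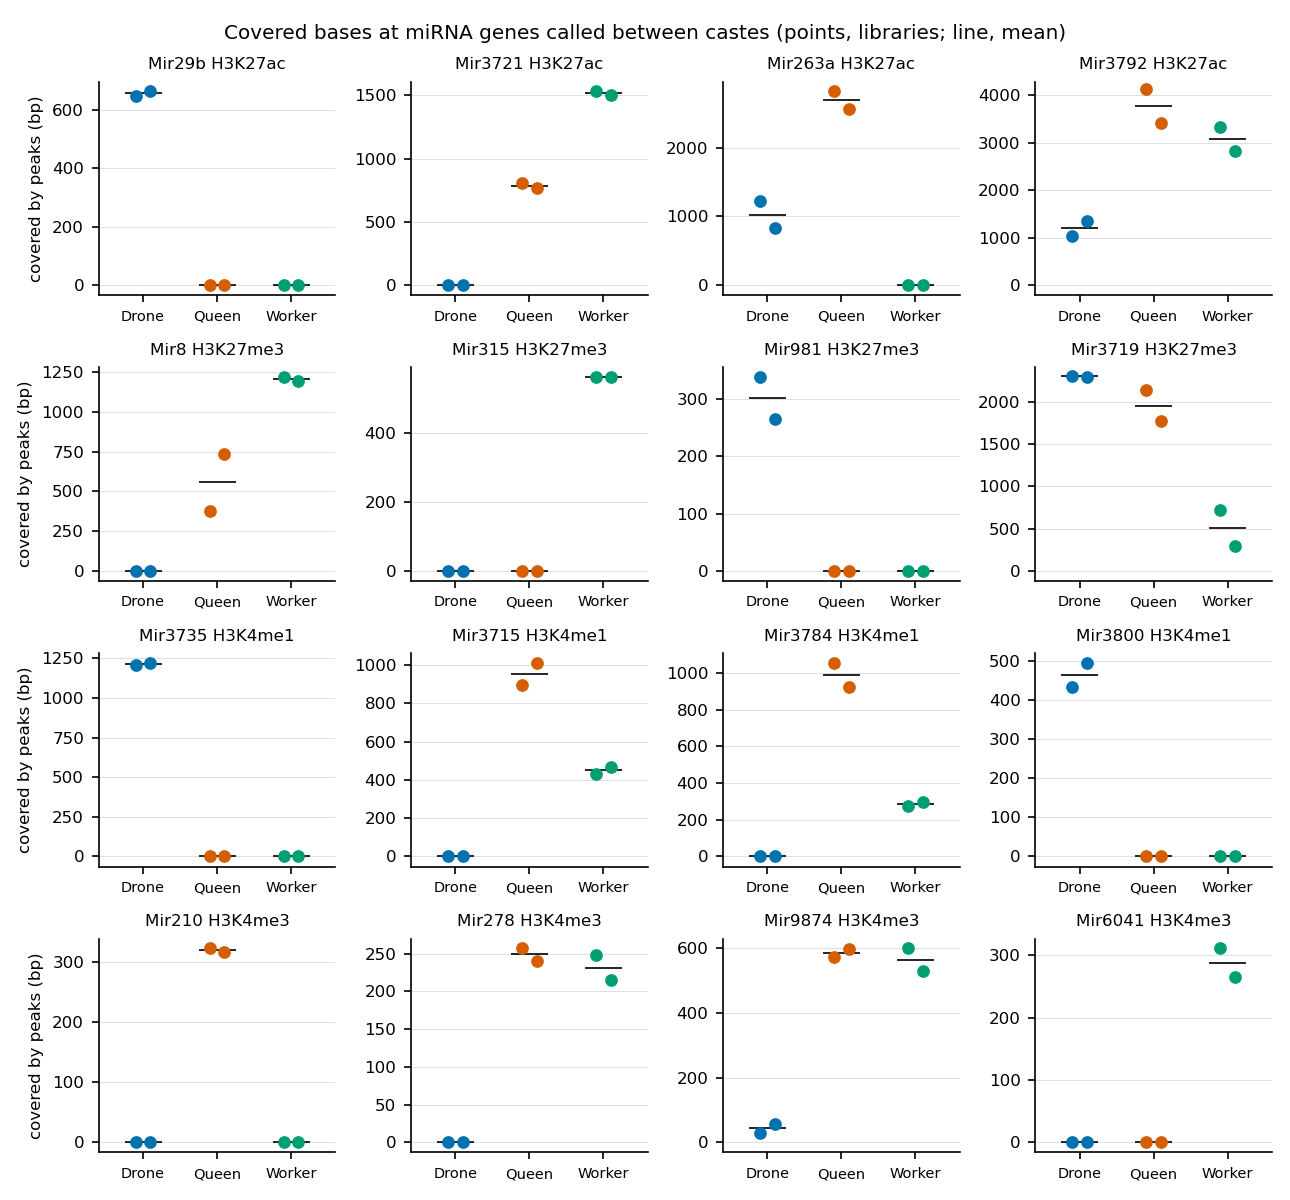
Base pairs of the window covered by peaks (vertical axis) in each library of drones, queens and workers (horizontal axis) for 16 miRNA genes called between castes, with 4 panels per mark. Points are libraries and short lines are means of the 2 libraries; Mir29b is covered in drones only, at 650 and 665 bp, Mir315 in workers only, at 564 bp in both libraries, and Mir3784 most in queens, at 1055 and 921 bp.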

How the data were processed

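The authors aligned reads with BWA (version 0.7.17) to Amel_HAv3.1 and called peaks in each library separately with MACS2, with a genome size of 270000000 bp. The deposited peak lists give each peak's position and its summit, the fold enrichment over input (a ratio), the −log10 p and −log10 q values, and an integer score. The lists hold no read counts, and no comparison columns of the authors were present. Depth was recovered from the deposited fold and −log10 p values. For each peak the whole-number pileup at the summit was sought that best returned the −log10 p. For every peak this was returned to within 0.01, or a small fraction of its value where that was larger. The lowest background of a library, scaled by the genome size and its shortest peak, gave the depth.

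A gene window reached 2000 bp beyond both ends of the gene, and an overlap of 1 bp counted as a peak. Gene positions were taken from the RefSeq gene table of the same assembly, and chromosome names were matched between table and lists. The replicates are separate biological pools of dissected brains, and p-values measure the spread between these pools. Only 1 input library was listed for each caste, so p-values do not measure a spread between inputs. A difference between inputs cannot be told apart from a difference between castes. Covered base pairs were tested as log2(bp + 100) with limma (version 3.58.1, R 4.3.3; trend and robust settings, two-sided, Benjamini-Hochberg over all genes tested, threshold 0.05), over genes with a peak in at least 2 libraries. Of the 234 miRNA genes, 126 passed this filter in the H3K27ac lists, 47 in those of H3K27me3, 110 in those of H3K4me1 and 73 in those of H3K4me3. Shares, lists and subgroups are descriptions with no test. Scripts ran in Python 3.11.15 and were tested on simulated data.

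Genes were named by rule: the 10 miRNA genes with the largest difference in each direction between 2 marks, those called between castes or present in both libraries of one caste and neither of another (up to 10 per mark and pair), those with 3 or more marks in all 6 libraries, and the role lists. The miRNA genes, lists and tests were chosen with earlier results of these data known. Alternatives covered the window, the peak threshold, equal peak numbers, equal depth, the overlap, the pseudocount, the filter, the replicate block and each library left out. No miRNA sequence was used here.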

Additional observations from a re-analysis of the deposited data

Results flagged for a closer look

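At 4 miRNA genes both libraries of one caste lay on one side of a difference between 2 marks and both libraries of another caste on the other side. The difference between the castes in this contrast was not tested at any of them, and groups of 2 libraries were too small for a search for single outlying samples. At Mir3719 the covered length of H3K27ac minus that of H3K27me3 averaged -1338 bp in drones and -837.5 bp in queens, against 1005.5 bp in workers. Its H3K27ac peaks covered 1168 and 771 bp in drones, 1142 and 1096 bp in queens and 1507 and 1522 bp in workers, so that both worker libraries were the highest for H3K27ac and, as given for the castes, the lowest for H3K27me3. At Mir282 the same difference was 432.5 bp in drones, against -616 bp in workers. At Mir8 the covered length of H3K4me1 minus that of H3K4me3 was 576.5 bp in drones, against -657.5 bp in queens, and at Mir6046 it was 469 bp in drones, against -196.5 bp in workers.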

How the results depend on the processing

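The shares of miRNA genes with a peak depended mainly on the window. With the gene body only, H3K27ac was found at 24.4%, H3K27me3 at 8.83%, H3K4me1 at 8.33% and H3K4me3 at 9.83%, and with 5 kb on each side the values were 59.0%, 24.9%, 52.5% and 37.5%. With the stricter q (−log10 of 5 or more) they were 14.2% for H3K27me3 and 24.4% for H3K4me1. With equal peak numbers they were 16.2% for H3K27me3, 25.7% for H3K4me1 and 16.2% for H3K4me3, and at equal depth 15.3% for H3K27me3 and 29.1% for H3K4me1. H3K27me3 was at 15.7% with an overlap of at least 200 bp and at 19.2% over loci. Leaving out 1 library gave 45.6 to 47.0%, 17 to 17.7%, 32.6 to 35.1% and 23.3 to 26.2% for H3K27ac, H3K27me3, H3K4me1 and H3K4me3.

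The differences between castes in these shares (percentage points) changed as follows. For H3K27ac, drone minus queen was -1.71 with the gene body, -2.78 with equal peak numbers and -6.84 to -3.85 without 1 library; drone minus worker was -0.43 at equal depth and -5.56 to -0.85 without 1 library; queen minus worker was 0 with the gene body, 0.64 with the stricter q, 0.85 with equal peak numbers and -0.21 to 4.49 without 1 library. For H3K27me3, drone minus queen was -0.43 with the gene body, 0.43 with 5 kb, -0.64 with equal peak numbers, 0.85 at equal depth, -0.50 over loci and -2.56 to -0.85 without 1 library. Drone minus worker was -0.43, -0.21 and 0.64 with the gene body, 5 kb and equal depth and -2.35 to -0.64 without 1 library, and queen minus worker was -1.71 with equal peak numbers, -1.24 over loci, 0 with the gene body, -0.64 with 5 kb, -0.21 at equal depth, -0.43 with an overlap of at least 200 bp and -0.64 to 1.07 without 1 library. For H3K4me1, drone minus queen was -1.07, -7.26, 0.21 and 4.06 with the gene body, 5 kb, equal peak numbers and equal depth and -5.56 to -2.99 without 1 library. Drone minus worker was 2.99, 7.48, -0.43 and 9.19 in the same settings and 3.85 to 7.26 without 1 library. Queen minus worker was 4.06, 14.7, -0.64 and 5.13, 11.8 with the stricter q, and 8.12 to 11.5 without 1 library. For H3K4me3, drone minus queen was -1.71, -14.3, -1.07 and -2.56 and -13.9 to -5.34 without 1 library, drone minus worker was -1.5, -11.8, 0.64 and 2.14 and -10.0 to -1.5 without 1 library, and queen minus worker was 1.5 to 6.20 without 1 library. The cause of these changes was not tested.

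The genes called between castes numbered 0 by limma with the gene body for H3K27ac and H3K4me3 (10 and 1 at an unadjusted p under 0.05) and 5 each for H3K27me3 and H3K4me1. With 5 kb they numbered 19 for H3K27me3 and 42 for H3K4me1. H3K27me3 gave 4 with the stricter q and 3 at equal depth, and H3K4me3 gave 7 with equal peak numbers. Without 1 library the H3K27ac count ran from 0 to 24, that of H3K27me3 from 3 to 15, that of H3K4me1 from 0 to 27 and that of H3K4me3 from 0 to 23. Between marks, the gene body gave 62 genes with more H3K27ac, 15 with more H3K4me1 and 19 with more H3K4me3, and leaving out 1 library gave 103 to 112 with more H3K27ac, 33 to 35 with more H3K27me3, 50 to 56 with more H3K4me1 and 36 to 40 with more H3K4me3. Libraries of the same replicate number did not deviate together (correlations from -0.27 to 0.06 between castes). With a replicate block the calls between castes numbered 5 in H3K27ac, 8 in H3K27me3, 7 in H3K4me1 and 0 in H3K4me3 (26 at an unadjusted p under 0.05), and 38 genes were called with more H3K4me1 than H3K4me3. Single genes reversed at Mir3792 (H3K4me1, drone minus queen 0.27 with 5 kb) and Mir9889 (H3K4me1, queen minus worker -0.28 with the stricter q, equal peak numbers and equal depth). A fit with no filter could not be fitted, and a filter of at least 1 library, chosen after seeing the data, took its place. With 2 pools per caste and unequal depth, a peak missing from a drone library cannot be told apart from one below detection.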

Other observations

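Genes of the miRNA class outside the rule on symbols were bantam and Miriab-4. At bantam, a growth-promoting miRNA in Drosophila, H3K27ac peaks covered 1993 and 1038 bp in drones, 1686 and 1671 bp in queens and 1620 and 1405 bp in workers, and H3K27me3 peaks covered none of the window in any library. H3K4me1 at bantam covered 2012 and 1668 bp in drones, 0 and 592 bp in queens and 0 and 568 bp in workers. Both drone libraries were above the other 4. Miriab-4 (chromosome 16, 3476152 to 3476236), which in Drosophila lies among the homeotic genes of the bithorax complex, had 2083 and 2029 bp of H3K27me3 in drones, 2079 and 2101 bp in queens and 2121 and 2394 bp in workers. It had no H3K27ac or H3K4me3 peak, and H3K4me1 in every library, 1438 and 1620 bp in drones, 1352 and 949 bp in queens and 600 and 519 bp in workers. Of the listed genes of the miRNA pathway only Dcr-1, the Dicer enzyme that cuts miRNA precursors, was matched by name in the gene table, and no peak of any mark was called in its window.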
